A study of Mus musculus with 12 samples.

Results

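The lysosomal proteases examined here were 9 cathepsins (Ctsa, Ctsb, Ctsc, Ctsd, Ctsh, Ctsk, Ctsl, Ctss and Ctsz) and legumain (Lgmn). They were found by gene symbol among the 56748 Ensembl mouse genes of the count table, which gave 10 genes of 56748. All 10 were among the 15033 genes with enough counts to be tested. Their transcripts were measured by bulk RNA sequencing of M2-like BMDM, which are macrophages grown from the bone marrow of C57BL/6J mice with M-CSF (20 ng/mL) and polarized with IL-4 (10 ng/mL) for 48 hours. The cells of all groups shared this treatment and were then cultured for 72 hours under 1 of 4 conditions, with 3 libraries each. The untreated control received medium alone. The rIFNβ group received recombinant IFNβ at 1500 pg/mL. The Ifnb1eGFP supernatant group received medium conditioned by YUMM5.2 Ifnb1eGFP cells, diluted to 1500 pg/mL IFNβ, and the eGFP supernatant group received medium of YUMM5.2 eGFP cells at the same dilution. The donor line YUMM5.2 derives from a mouse melanoma. Its derivatives carried Ifnb1 with eGFP, or eGFP alone, behind a promoter that responds to tetracyclines, and both had been kept in doxycycline (Dox) at 1 µg/mL for 72 hours. Supernatant and carried-over Dox therefore cannot be told apart in these groups, and the labels give neither the age nor the sex of the donor mice.

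Cathepsins and legumain are made as inactive precursors, sorted to endosomes and lysosomes and activated at acidic pH, where they degrade proteins taken up by the macrophage. They differ in chemistry and in the bonds they cut. Cathepsins B, C, H, K, L, S and Z are cysteine proteases, cathepsin D is an aspartic protease, cathepsin A is a serine carboxypeptidase, and legumain is a cysteine protease that cuts after asparagine. In antigen-presenting cells cathepsin S is known for trimming the invariant chain from MHC class II, and cathepsin K is best known for degrading bone collagen in osteoclasts.

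The 4 conditions formed a 2 by 2 design, so that the effect of IFNβ could be read with and without supernatant, and the effect of supernatant with and without IFNβ. Supernatant with IFNβ came from another donor line than supernatant without it, and IFNβ without supernatant was recombinant. Donor line and IFNβ source therefore cannot be told apart from the comparisons that use the Ifnb1eGFP supernatant group, or from the interaction. Library totals ran from 31526034 to 45348457 counts, and levels are given as CPM, counts divided by the library total in units of 1e6 and by its TMM factor. Differences are log2 fold changes with standard errors (SE) from 1 edgeR quasi-likelihood model of all 12 libraries, and a gene was called at a Benjamini-Hochberg adjusted p of at most 0.05 over the 15033 genes tested. The p-values measure the spread between these libraries, and in bulk RNA a change in the number of cells cannot be told apart from a change in RNA per cell. Of 7 interferon response genes 6 were tested, and all 6 were higher with IFNβ in both comparisons. In eGFP supernatant replicate 2, however, Irf7 stood at 45.2 CPM and Rsad2 at 227.6 CPM, above the remaining libraries without IFNβ. The eGFP supernatant median also lay above every untreated library for Rsad2, at 46.4 against at most 31.9 CPM. The same held for Ifit1 (10.5 against 6.96) and Mx1 (11.3 against 10.0), but not for Isg15, Irf7 and Oas1a. With supernatant alone the 6 tested genes had a median log2 fold change of 1.59, and 0 of them were called. Ifnb1eGFP supernatant replicate 2 also stood apart, differing from the others of its group by a chi-square over degrees of freedom of 23.3 and 54.0, where the remaining pairs within groups reached at most 18.6. Results that turn on either library are given with and without it. All 8 macrophage markers were present. Their summed level ran from 14400 to 15600 CPM in the untreated control and 18250 to 18800 with eGFP supernatant. It ran from 10500 to 10720 with Ifnb1eGFP supernatant and 9818 to 9950 with rIFNβ. Lyz2 was the largest part of this sum. Its mean was 9415 CPM in the untreated control, 12396 with eGFP supernatant, 4111 with Ifnb1eGFP supernatant and 3472 with rIFNβ. Itgam and Cd14 also had lower means with IFNβ in both comparisons. The means of Adgre1, Csf1r, Cd68, Mertk and Fcgr1 were higher with IFNβ in both. Of the 4 markers of IL-4 polarization, Arg1 was below 1 CPM in every library, while Mrc1, Chil3 and Retnla were present. Markers of T cells, B cells, NK cells, mast cells, erythroid cells and melanoma summed to less than 1 CPM in every library, those of neutrophils to at most 5.72 CPM and those of dendritic cells to at most 1.61 CPM.

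IFNβ split the family. In both comparisons Ctsc, Lgmn, Ctsh, Ctss and Ctsl rose, Ctsk, Ctsd, Ctsa and Ctsz fell, and Ctsb did not pass the test. With supernatant present, 5 of 10 members were higher, where 30.1% of all genes tested were, and 4 of 10 were lower, where 25% were. Without supernatant the same counts of 5 and 4 stood beside 30.7% and 24.6%. Of all genes tested, 55.1% with and 55.3% without supernatant were called in either direction, so a call was common. The members differed in the direction and the size of their changes. The median log2 fold change over the 10 members was 0.24 with and 0.22 without supernatant, against 0.03 and 0.04 over all genes tested. The libraries of the compared groups did not overlap for 8 of 10 members with supernatant (59% of all genes) and 9 of 10 without (66.1%). Under the stricter thresholds of the study (2 on the log2 scale in either direction, adjusted p up to 0.01), Ctsc alone of the 10 passed in each comparison, where 5.39% and 5.77% of all genes passed.

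**Figure D1:**
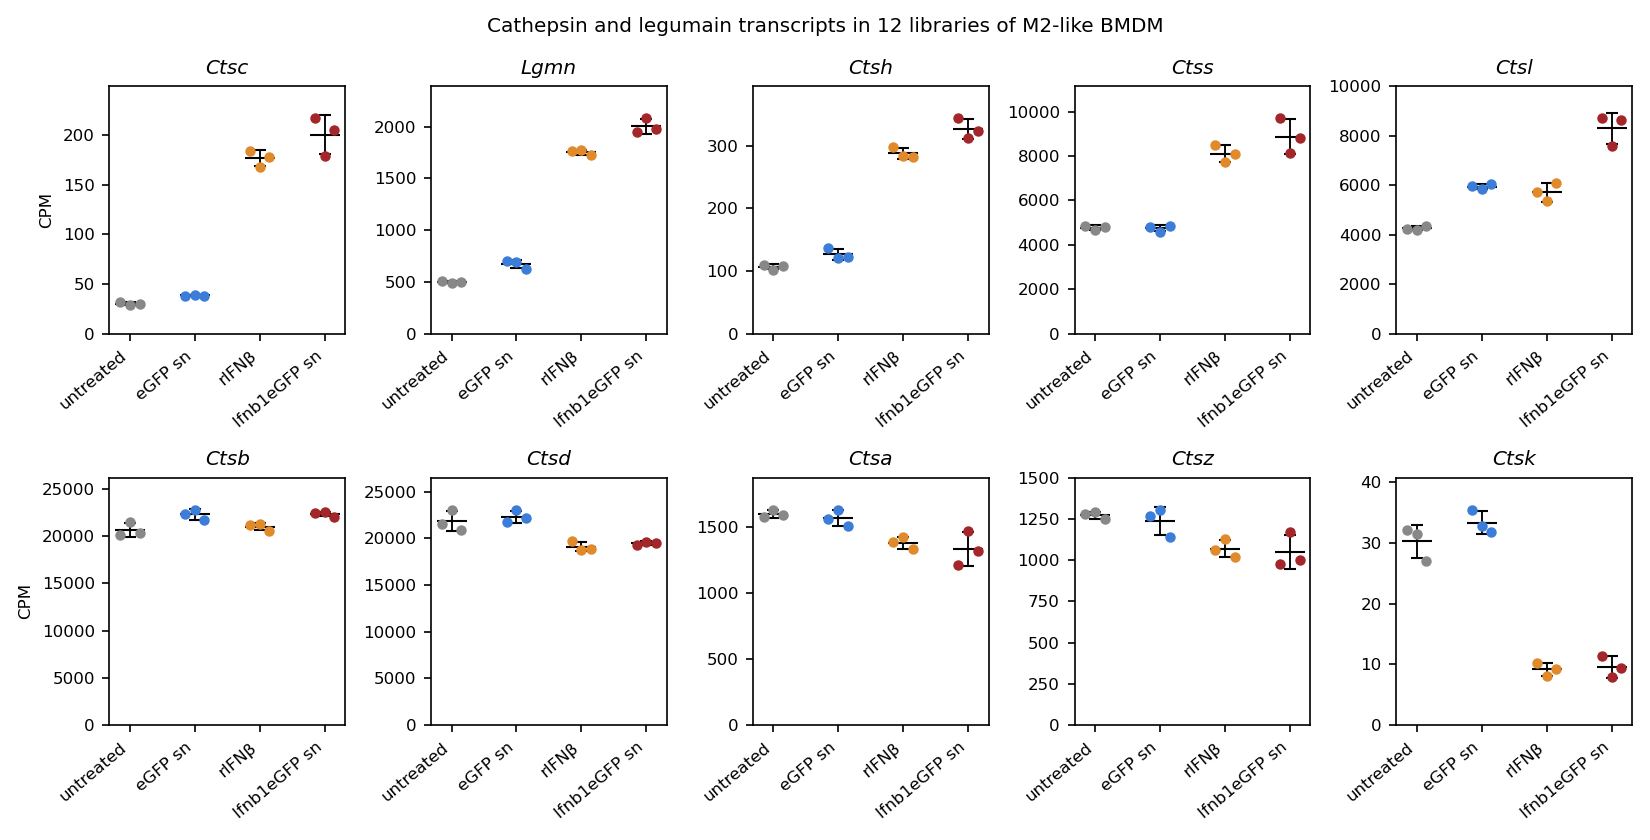
Level of each member in CPM (vertical axes from 0, a separate scale for each gene) in the 12 libraries, with points for libraries and a bar and whiskers for the mean and SD of 3. Ctsc, Lgmn, Ctsh and Ctss stand higher in both IFNβ groups and Ctsk lower, while Ctsl stands highest where IFNβ and supernatant were combined.

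Ctsc (ENSMUSG00000030560; GRCm39 chromosome 7, 87927092 to 87960096, forward strand) encodes the dipeptidyl peptidase that activates serine proteases of immune cells, and it showed the largest rise of the family. It was measured at 31.9, 28.9 and 29.3 CPM in the untreated control and at 37.8, 39.3 and 38.3 CPM with eGFP supernatant. It reached 216.8, 178.9 and 205.5 CPM with Ifnb1eGFP supernatant and 184.3, 168.0 and 178.0 CPM with rIFNβ. The groups with and without IFNβ did not overlap, and every IFNβ library stood above every library without it. The log2 fold change was 2.38 (SE 0.07, edgeR adjusted p = 6.07e-10) with supernatant and 2.56 (SE 0.07, adjusted p = 3.30e-10) without it, or 5.21-fold and 5.88-fold.

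Lgmn (ENSMUSG00000021190; chromosome 12, 102359122 to 102414682, reverse strand) encodes legumain, which also processes the precursors of several cathepsins. It stood at 508.1, 491.9 and 493.8 CPM in the untreated control, 699.8, 694.4 and 627.1 with eGFP supernatant, 1952, 2082 and 1974 with Ifnb1eGFP supernatant and 1761, 1772 and 1727 with rIFNβ. The 4 groups did not overlap with one another, and their ascending order was control, eGFP supernatant, rIFNβ and Ifnb1eGFP supernatant. IFNβ raised it by 1.57 on the log2 scale (SE 0.05, edgeR adjusted p = 7.80e-10) with supernatant and by 1.82 (SE 0.05, adjusted p = 2.95e-10) without.

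Ctsh (ENSMUSG00000032359; chromosome 9, 89936205 to 89958148, forward strand), an aminopeptidase, was measured at 110.2, 101.9 and 108.1 CPM in the untreated control, 135.9, 120.3 and 123.0 with eGFP supernatant, 343.5, 312.4 and 322.5 with Ifnb1eGFP supernatant and 297.5, 283.7 and 281.2 with rIFNβ. Its 2 IFNβ groups lay above both groups without IFNβ. The rise was 2.58-fold with supernatant (log2 fold change 1.37, SE 0.06, edgeR adjusted p = 5.81e-09) and 2.69-fold without (1.43, SE 0.06, adjusted p = 3.63e-09).

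Ctss (ENSMUSG00000038642; chromosome 3, 95433963 to 95463717, forward strand), the endopeptidase of invariant chain processing, was an abundant transcript before any IFNβ was given. It stood at 4850, 4673 and 4811 CPM in the untreated control and 4794, 4598 and 4861 CPM with eGFP supernatant, which overlapped. With Ifnb1eGFP supernatant it stood at 9700, 8131 and 8803 CPM and with rIFNβ at 8489, 7719 and 8102 CPM, which overlapped with each other but not with the groups lacking IFNβ. Ctss rose 1.87-fold with supernatant (log2 fold change 0.90, SE 0.06, edgeR adjusted p = 2.29e-07) and 1.70-fold without (0.76, SE 0.06, adjusted p = 7.99e-07).

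Ctsk (ENSMUSG00000028111; chromosome 3, 95406178 to 95416732, forward strand), the collagen-degrading cathepsin, was the only member whose level fell by more than 1 on the log2 scale. It was measured at 32.2, 31.4 and 27.1 CPM in the untreated control, 35.4, 32.7 and 31.8 with eGFP supernatant, 11.4, 7.87 and 9.38 with Ifnb1eGFP supernatant and 10.2, 8.10 and 9.30 with rIFNβ. Again the IFNβ groups did not overlap with the groups without it. The log2 fold change was -1.80 with supernatant (SE 0.13, edgeR adjusted p = 3.51e-07) and -1.72 without (SE 0.13, adjusted p = 5.05e-07). Ctsk and Ctss are neighbours on chromosome 3, on the same strand and 17.2 kb apart with 1 annotated gene (Gm56808) between them, and they changed in opposite directions.

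The list of osteoclast or giant cell markers moved with Ctsk. Of its 8 genes, 7 had more than 3 counts in some library and Calcr did not. The summed level ran from 2055 to 2295 CPM in the untreated control and 1893 to 2048 CPM with eGFP supernatant, against 990.8 to 1120 CPM with Ifnb1eGFP supernatant and 931.3 to 936.4 CPM with rIFNβ. Over both IFNβ comparisons pooled, Mmp9 (log2 fold change -5.21), Dcstamp (-4.60), Itgb3 (-2.62), Ocstamp (-2.45), Atp6v0d2 (-0.62) and Acp5 (-0.55) fell and Nfatc1 (0.22) rose. The fibroblast markers also differed, with a summed level of 16.6 to 37.8 CPM without IFNβ and 30.8 to 53.8 CPM with it, where Dcn (log2 fold change 1.57) and Pdgfra (1.42) rose and Col1a1 (-1.05) fell. The part of other cells or of cell fusion in the values of Ctsk was not tested.

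Ctsd, Ctsa and Ctsz fell by less. Ctsd (ENSMUSG00000007891; chromosome 7, 141929646 to 141941775, reverse strand), the aspartic protease, was the most abundant member per length in every group. It stood at 21568, 23052 and 20889 CPM in the untreated control, 21694, 22982 and 22122 with eGFP supernatant, 19329, 19656 and 19495 with Ifnb1eGFP supernatant and 19669, 18762 and 18847 with rIFNβ. The groups with IFNβ did not overlap with those without it, and the fall was 12.4% with supernatant (log2 fold change -0.19, SE 0.04, edgeR adjusted p = 0.00208) and 12.6% without (-0.19, SE 0.04, adjusted p = 0.00187). Gm49369, an annotated gene on the same strand, shares 808 exonic bases with Ctsd and took 12.2 to 15.9% of the counts of the pair, so the split of reads between them is uncertain. Counted together, in an alternative chosen after the data were seen, the pair had log2 fold changes of -0.19 (adjusted p = 0.00133) and -0.17 (adjusted p = 0.00223).

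Ctsa (ENSMUSG00000017760; chromosome 2, 164674778 to 164682961, forward strand), which also protects lysosomal glycosidases, ran from 1510 to 1633 CPM in the 6 libraries without IFNβ and from 1217 to 1469 CPM in the 6 with it. Its log2 fold changes were -0.23 (SE 0.06, edgeR adjusted p = 0.00804) with supernatant and -0.21 (SE 0.06, adjusted p = 0.0130) without. Ctsa shares 1252 exonic bases with Pltp, a gene on the opposite strand with a mean of 16174 counts per library. The strand setting of the counting was not given, and a part of Pltp reads in the values of Ctsa was not tested. Ctsz (ENSMUSG00000016256; chromosome 2, 174267304 to 174280832, reverse strand), a carboxypeptidase, ran from 1140 to 1305 CPM without IFNβ and 978.0 to 1169 CPM with it, and the supernatant groups overlapped. Its log2 fold changes were -0.24 (SE 0.07, edgeR adjusted p = 0.0162) and -0.25 (SE 0.07, adjusted p = 0.0120). The smaller falls were sensitive to single libraries. The call of Ctsz with supernatant was lost without eGFP supernatant replicate 1 (adjusted p = 0.0538) or replicate 2 (0.0653), without Ifnb1eGFP supernatant replicate 3 (0.0662), or when the compared groups alone were fitted (0.0633). Without supernatant the calls of Ctsa (0.0529) and Ctsz (0.0515) were lost without rIFNβ replicate 3.

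Ctsb (ENSMUSG00000021939; chromosome 14, 63358384 to 63383372, forward strand), which has both endopeptidase and carboxypeptidase activity, kept a narrow range in all conditions. It was measured at 20133, 21522 and 20347 CPM in the untreated control, 22373, 22780 and 21712 with eGFP supernatant, 22392, 22499 and 22049 with Ifnb1eGFP supernatant and 21142, 21301 and 20562 with rIFNβ. The IFNβ groups overlapped with their controls in both comparisons. Pooled over both, the log2 fold change with IFNβ was 0.01 (95% interval -0.04 to 0.07, edgeR adjusted p = 0.681), and its sign turned with RLE factors (-0.03) and DESeq2 (-0.02). With supernatant its pooled difference was 0.10 (95% interval 0.04 to 0.15, adjusted p = 0.120), which DESeq2 called (adjusted p = 0.00432). The groups did not overlap in either supernatant comparison, and the libraries with supernatant lay higher. Of all genes, 15.5% did not overlap without IFNβ and 12.8% with it.

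**Figure D2:**
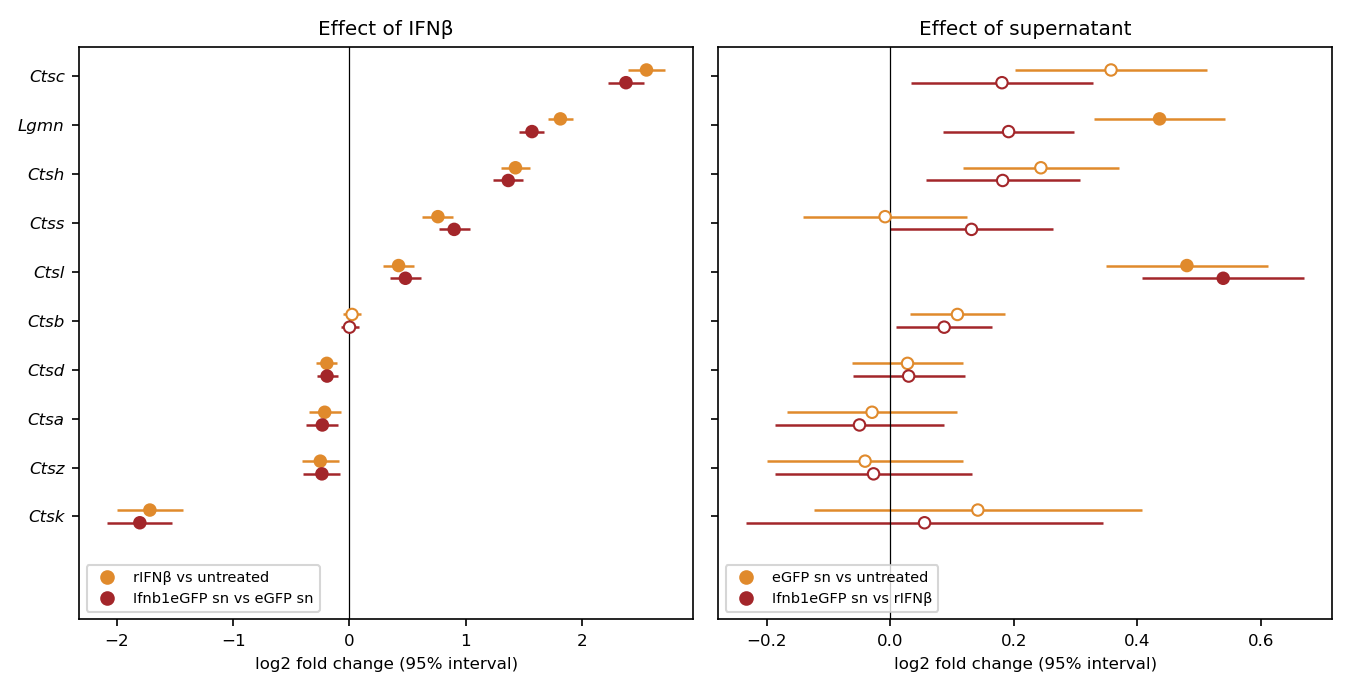
Log2 fold changes (horizontal axes, which differ in scale between panels) of the 10 members for IFNβ (left) and supernatant (right), each with its 95% interval. Filled points passed the adjusted p threshold of 0.05, open points did not, and 9 members are filled in both IFNβ comparisons but only Ctsl in both supernatant comparisons.

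Supernatant had a smaller effect, and it ran in 1 direction for the members that passed. Without IFNβ, Ctsl and Lgmn rose with supernatant (2 of 10, where 0.246% of all genes tested were higher). With IFNβ present, Ctsl rose (1 of 10, where 0.14% were higher). Pooled over both, Ctsl, Lgmn, Ctsc and Ctsh rose (4 of 10, where 0.692% were higher), and 0 of 10 fell in any of these comparisons, where 0.0532%, 0.02% and 0.213% of all genes were lower. Genes called in either direction numbered 45 without IFNβ, 24 with IFNβ and 136 pooled. Each count depended on single libraries. Leaving out 1 library gave 16 to 76 genes without IFNβ, 4 to 1051 with IFNβ and 55 to 531 pooled. The counts of 1051 and 531 came without Ifnb1eGFP supernatant replicate 2, with 1.27% and 1.43% of genes higher and 3 and 4 of 10 members higher. By unadjusted p the members at the top were Lgmn, the fifth of 15033 genes without IFNβ, and Ctsl, the fifth with IFNβ and the sixth in the pooled comparison.

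Ctsl (ENSMUSG00000021477; chromosome 13, 64507151 to 64518704, reverse strand), a broad-acting endopeptidase, responded to both exposures. It stood at 4228, 4204 and 4343 CPM in the untreated control, 5942, 5846 and 6036 with eGFP supernatant, 5704, 5336 and 6095 with rIFNβ, and 8698, 7574 and 8630 with Ifnb1eGFP supernatant. Control lay below the groups with a single exposure, which overlapped with each other, and Ifnb1eGFP supernatant lay above all of them. Supernatant raised Ctsl by 0.48 on the log2 scale without IFNβ (SE 0.06, edgeR adjusted p = 0.00754) and by 0.54 with it (SE 0.06, adjusted p = 0.00476). IFNβ raised it by 0.42 without supernatant (SE 0.06, adjusted p = 8.90e-05) and by 0.48 with it (SE 0.06, adjusted p = 3.29e-05). The rise with supernatant in the presence of IFNβ lost its call without rIFNβ replicate 1 (0.54, adjusted p = 0.0526) and when the compared groups alone were fitted (0.55, adjusted p = 0.210).

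The direct comparison of the single exposures, rIFNβ against eGFP supernatant, was added after the values had been seen. In this model it equals the pooled IFNβ effect minus the pooled supernatant effect. Ctsl differed by -0.06 on the log2 scale (95% interval -0.19 to 0.07, edgeR adjusted p = 0.446) and Ctsb by -0.09 (95% interval -0.16 to -0.01, adjusted p = 0.0585). For the other 8 members the groups differed. Ctsc, Lgmn, Ctsh and Ctss were higher with rIFNβ (4 of 10, where 30% of genes were), by 2.20, 1.38, 1.19 and 0.77 on the log2 scale. Ctsk, Ctsd, Ctsz and Ctsa were lower (4 of 10, where 24.6% were), by -1.86, -0.22, -0.21 and -0.18. Both Ctsa and Ctsz lost this call without eGFP supernatant replicate 1 or 2 or without rIFNβ replicate 1 or 3, with adjusted p of 0.0613 to 0.0954 for Ctsa and 0.0760 to 0.105 for Ctsz. Ctsb gained it without untreated control replicate 2 (0.0479) or Ifnb1eGFP supernatant replicate 1 (0.00211) or 2 (0.0395), and under other settings of the fit.

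Lgmn rose with supernatant alone by 0.44 on the log2 scale (SE 0.05, edgeR adjusted p = 0.00552), or 1.35-fold. In the presence of IFNβ its difference was 0.19 (SE 0.05, adjusted p = 0.290), although the 3 Ifnb1eGFP supernatant libraries all lay above the 3 rIFNβ libraries. As given above, eGFP supernatant replicate 2 held the highest Irf7 and Rsad2 of its group. Without it, the rise with supernatant alone was 0.41 (adjusted p = 0.0315) for Lgmn and 0.49 (adjusted p = 0.0365) for Ctsl. A part of the interferon response in these rises was not tested. The pooled rises of Ctsc (0.27, SE 0.05, edgeR adjusted p = 0.0329) and Ctsh (0.21, SE 0.04, adjusted p = 0.0393) were less firm. The call of Ctsc was kept without untreated control replicate 1 or Ifnb1eGFP supernatant replicate 2 and lost in each of the other 10 fits that left out a library, with adjusted p of up to 0.0958. That of Ctsh was kept without eGFP supernatant replicate 2 or Ifnb1eGFP supernatant replicate 2 and lost in the other 10, with adjusted p of up to 0.111. Ifnb1eGFP supernatant replicate 2 held the lowest Ctsc, Ctsh, Ctsl, Ctss and Ctsk of its group and the highest Lgmn, Ctsa, Ctsz, Ctsd and Ctsb. When it was left out, supernatant in the presence of IFNβ also raised Ctsc (0.26, adjusted p = 0.0326) and Ctss (0.19, adjusted p = 0.0488). Supernatant alone then raised Ctsc (0.36, adjusted p = 0.0146). In the same fit 1051 genes were called for supernatant in the presence of IFNβ, against 24 with all libraries, and 1.27% of genes were higher.

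An interaction term compared the IFNβ effects in the presence and absence of supernatant, and 0 of 10 members and 0 of 15033 genes (0%) were called by edgeR. At an unadjusted p under 0.05 there were 661 genes. DESeq2 called 16, of which 1 was a member. That member was Lgmn, whose IFNβ effect was smaller with supernatant by -0.24 on the log2 scale in edgeR (95% interval -0.39 to -0.10, unadjusted p = 0.00409, adjusted p = 0.926) and by -0.23 in DESeq2 (adjusted p = 0.0496). For Ctsl the interaction was 0.06 (95% interval -0.13 to 0.24, edgeR adjusted p = 0.927), which spans 0.

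Together the 10 genes took 5.50% ± 0.13 (SD, n = 3) of all counts in the untreated control, 5.85% ± 0.09 with eGFP supernatant, 5.90% ± 0.12 with rIFNβ and 6.40% ± 0.18 with Ifnb1eGFP supernatant. Ctsb, Ctsd and Ctss made up 78.9 to 86.4% of these counts. Levels were divided by the length of all annotated exons of each gene, as an approximate way to compare genes. By this measure the order was Ctsd, Ctsb, Ctss, Ctsl, Ctsz, Ctsa, Lgmn and Ctsh in every group. Ctsd led with 7892 CPM per kilobase in the untreated control, ahead of Ctsb with 2693. This lead depends on the divisor, 2767 bases for Ctsd and 7674 for Ctsb, and the length of the transcripts present was not measured. Undivided, the means of Ctsd and Ctsb were 21836 and 20668 CPM in the untreated control. With Ifnb1eGFP supernatant they were 19493 and 22313 CPM. The order changed at the bottom, where Ctsk (10.3 CPM per kilobase) stood above Ctsc (4.80) in the untreated control, and Ctsc (32.0) stood above Ctsk (3.24) with Ifnb1eGFP supernatant. Neighbours whose libraries overlapped were Ctss and Ctsl with eGFP supernatant (895.6 and 890.4 CPM per kilobase), Ctsz and Ctsa in every group but the untreated control, and Ctsa and Lgmn with Ifnb1eGFP supernatant (259.3 and 241.8).

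**Figure D3:**
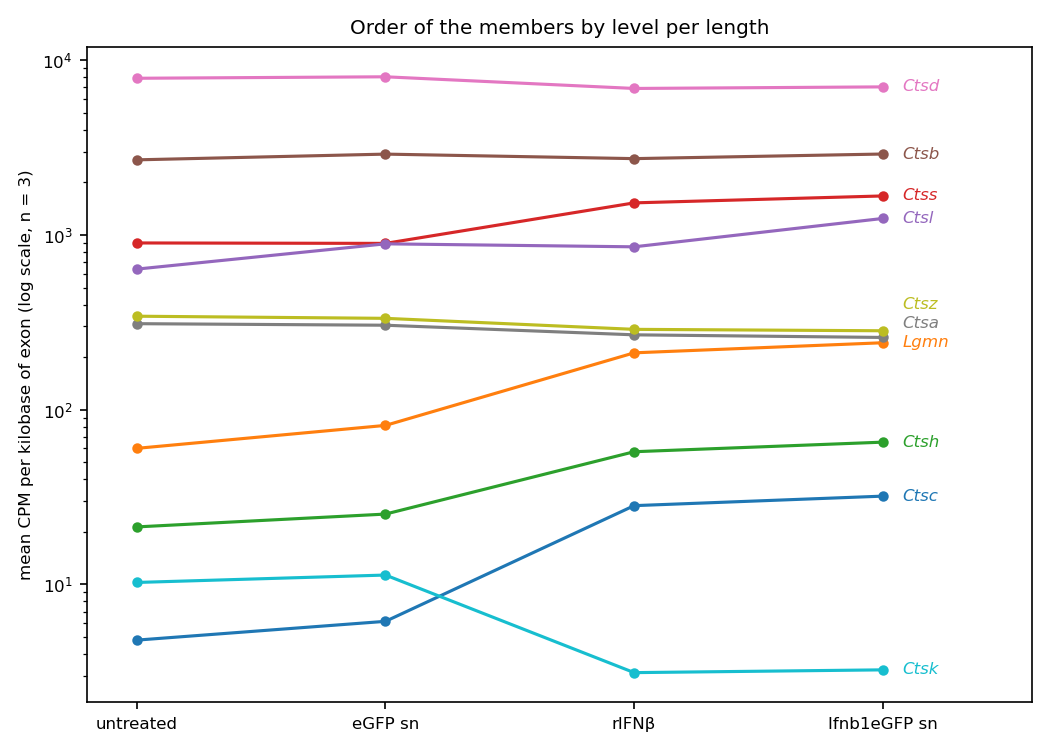
Mean level of each member per length (CPM per kilobase of exon, logarithmic vertical axis, n = 3) in the 4 conditions, joined by lines to show the order. Ctsc and Ctsk exchange the lowest places between the groups without and with IFNβ, and Lgmn approaches Ctsa and Ctsz where IFNβ was given.

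The promoter sequences of the members were searched for 4 motifs known from interferon signaling and lysosomal gene control. The windows were RefSeq sequences of GRCm38.p6, in which the 250 bases before the start site were searched on both strands. Of the 10 members 8 had a window, with 10 windows in all, and Ctsb and Ctsh had none. The motifs were the CLEAR core TCACGTGA, bound by the MiT/TFE factors of lysosomal genes, which holds the E-box CACGTG within it, the interferon-stimulated response element (ISRE) as GAAA, any 2 bases and GAAA, and the interferon-gamma activated site (GAS) as TTCNNNGAA. Of 32851 promoter windows, 0.785% held the CLEAR core, 6.02% the E-box, 2.98% the ISRE and 7.02% the GAS. Of the 10 member windows, 2 held the CLEAR core, 4 the E-box, 1 the ISRE and 1 the GAS. The stretches below show the motif of 1 window each, in capitals, for Ctss and Ctsc, which rose with IFNβ, for Ctsd, the most abundant member per length, and for Ctsl, which rose with both exposures.
Ctss, ISRE, chr3:95526740-95526785, forward strand: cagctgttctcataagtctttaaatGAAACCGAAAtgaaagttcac
Ctsc, GAS, chr7:88277835-88277882, forward strand: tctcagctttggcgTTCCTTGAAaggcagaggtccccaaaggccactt
Ctsd, CLEAR core, chr7:142387894-142387951, reverse strand: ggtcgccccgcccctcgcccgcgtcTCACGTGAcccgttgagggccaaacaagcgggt
Ctsl, E-box, chr13:64370726-64370770, reverse strand: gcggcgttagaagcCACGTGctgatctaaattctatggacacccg

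The ISRE match of Ctss lay 11 to 21 bases before its start and the GAS match of Ctsc 227 to 236 bases before its start. The CLEAR core of Ctsd lay 91 to 99 bases before its start, and the E-box of Ctsl 230 to 236 bases. Ctsd had a further E-box, a window of Ctsa held the CLEAR core and a window of Lgmn an E-box. The windows of Ctsk and Ctsz held none of these letters. Those of Lgmn and Ctsl, which also rose with IFNβ, held no ISRE or GAS. A match describes the sequence alone, and binding was not measured.

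Inhibitors of cysteine cathepsins moved in both directions. Of 13 listed genes 9 were tested, and with IFNβ, pooled over supernatant, 3 were higher and 5 lower, with a median log2 fold change of -0.25 against 0.03 over all genes, of which 36.1% were higher and 30.1% lower. Cystatin B (Cstb), an inhibitor inside cells, fell by 0.25 on the log2 scale (edgeR adjusted p = 0.000377), and Serpinb1a, a serpin that acts mainly on serine proteases, fell by 1.25 (adjusted p = 1.59e-06). Cystatin C (Cst3), the main secreted inhibitor, differed by 0.02 (adjusted p = 0.875). Cst7 (-0.34, adjusted p = 0.0154) and Cst6 (-0.94, adjusted p = 0.0264) fell from low levels, at most 2.84 and 0.404 CPM.

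Ctla2a and Ctla2b resemble the propeptide of cathepsin L and inhibit enzymes of its kind. Of the 9 inhibitors, only Ctla2a was called with supernatant. It rose without IFNβ and pooled, where 0.246% and 0.692% of all genes were higher. It had a mean of 2.70 CPM (SD 0.809) in the untreated control, 12.6 (SD 3.30) with eGFP supernatant, 1.88 (SD 0.672) with rIFNβ and 4.83 (SD 0.826) with Ifnb1eGFP supernatant, each of 3 libraries. It rose by 2.21 on the log2 scale with supernatant alone (SE 0.27, edgeR adjusted p = 0.00754), and fell with IFNβ in the presence of supernatant by 1.38 (SE 0.26, adjusted p = 0.000807). Ctla2b rose with IFNβ instead, by 1.38 pooled (SE 0.15, adjusted p = 6.35e-06), and its pooled difference with supernatant was 0.66 (SE 0.15, adjusted p = 0.0764). The sequences of Ctla2a and Ctla2b are much alike, so reads may have been divided between them and their separate values are uncertain.

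**Figure D4:**
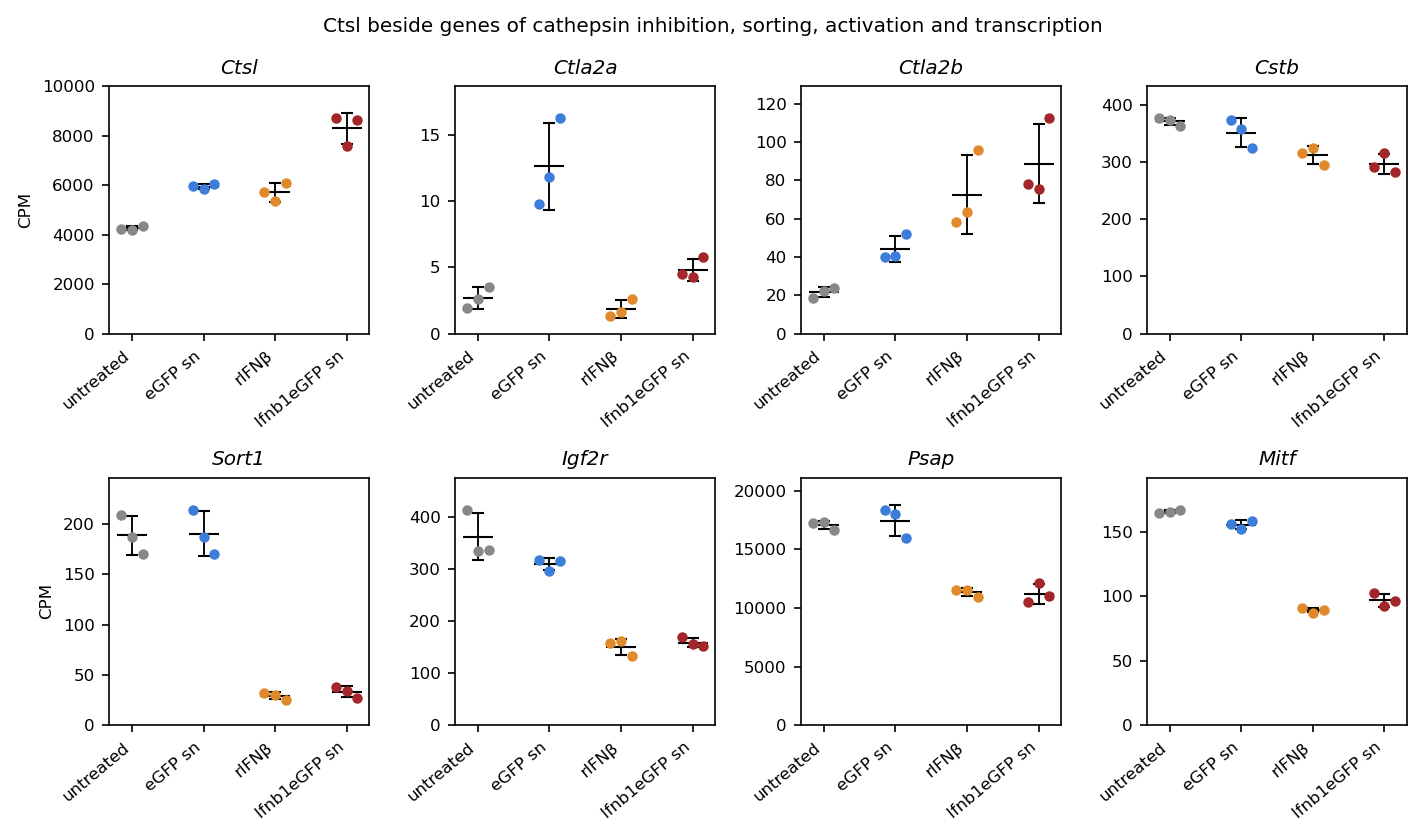
Levels in CPM (vertical axes from 0, a separate scale for each gene) of Ctsl and 7 related genes in the 12 libraries, with points for libraries and a bar and whiskers for the mean and SD of 3. Ctla2a stands highest with eGFP supernatant, while Sort1, Igf2r, Psap and Mitf stand lower in both IFNβ groups.

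Genes that carry lysosomal enzymes to their compartment moved in both directions with IFNβ. Of 11 tested, 3 were higher and 7 lower in the pooled comparison, where 36.1% and 30.1% of all genes were. In each single comparison 3 were higher and 6 lower, where 30.1% and 25% of all genes were with supernatant and 30.7% and 24.6% without. The pooled median log2 fold change was -0.24, against 0.03 over all genes. Sortilin (Sort1), a sorting receptor, fell from 189.1 CPM (SD 19.3) in the untreated control to 29.2 (SD 3.36) with rIFNβ, and its pooled log2 fold change was -2.61 (SE 0.10, edgeR adjusted p = 7.41e-10). The mannose 6-phosphate receptors fell unequally, Igf2r by 1.11 (adjusted p = 3.39e-08) and M6pr by 0.12 (adjusted p = 0.00218). Lrp1, an endocytic receptor, fell by 0.79 (adjusted p = 0.00146), with untreated control replicate 1 at 2289 CPM, above all other libraries. The comparison with supernatant, which does not include that library's group, gave -0.72 (adjusted p = 0.0236). Gnptg, a subunit of the enzyme that starts the mannose 6-phosphate tag, rose by 0.64 (adjusted p = 7.50e-08). With supernatant, pooled, 1 of the 11 was higher and 0 lower, where 0.692% and 0.213% of all genes were. It was Gnptab (0.22, adjusted p = 0.00937), a gene named after its value was seen, which encodes the catalytic subunits of the same enzyme.

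Of 7 partners and activators, 0 rose and 4 fell with IFNβ in the pooled comparison, where 36.1% and 30.1% of all genes did. Without supernatant 1 of the 7 rose and 4 fell, where 30.7% and 24.6% of all genes did. The gene that rose was Neu1 (0.37, edgeR adjusted p = 0.0473), a lysosomal sialidase named after its value was seen. Psap, the precursor of the saposins, fell by 0.62 on the log2 scale (edgeR adjusted p = 1.99e-07), Ifi30, a lysosomal thiol reductase, by 1.08 (adjusted p = 1.57e-09) and Tpp1, a lysosomal tripeptidyl peptidase, by 0.35 (adjusted p = 4.89e-07). Cd74, the invariant chain that Ctss cuts, differed by 0.13 with IFNβ (adjusted p = 0.135) and fell by 0.40 with supernatant in the pooled comparison (adjusted p = 0.0329). Among the 4 MiT/TFE factors, which drive lysosomal genes, Mitf fell by 0.79 (adjusted p = 7.89e-10) and Tfec rose by 0.41 (adjusted p = 2.27e-05) with IFNβ, while Tfeb (-0.38, adjusted p = 0.0626) and Tfe3 (-0.04, adjusted p = 0.478) did not pass. Of 15 further cathepsin genes 4 were tested, and Ctso rose (0.57, adjusted p = 5.39e-08), Ctsf fell (-0.64, adjusted p = 1.49e-05) and Ctse rose (0.87, adjusted p = 0.00594) in the pooled comparison. Ctse stood at no more than 0.326 CPM in the libraries without IFNβ and 0.565 CPM in those with it, and it was not called in the presence of supernatant (0.58, adjusted p = 0.137).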

How the data were processed

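The authors made libraries with the TruSeq Stranded Total RNA Kit, quantified the reads with RSEM 1.3.3, and deposited expected counts (estimated counts) per Ensembl gene for the 12 libraries without normalization. The submitters' processing notes name GRCm39 together with mm10, which are different builds, and the strand setting of the counting was not given in the sources used here. Positions given here are those of GENCODE M39 on GRCm39. Exons of Ctsa, Ctsb, Ctsl and Ctsz overlap with genes on the opposite strand.

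All 12 columns were matched to samples by name. Counts were rounded, since 12% of values were not whole, and filtered by filterByExpr. The model was fitted with edgeR 4.0.16 under R 4.3.3 (TMM factors, prior count of 2 for log2 values, quasi-likelihood test, Benjamini-Hochberg adjustment). The study used DESeq2, run here (1.42.0) as an alternative. Each SE was taken as the absolute log2 fold change over the root of F. With 3 libraries a group, an exact permutation test of a single gene cannot go below 0.1 and was not run.

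The members and lists were chosen with earlier results of these data known. Named genes were all members, a set list of inhibitors, receptors and factors, the up to 4 called genes of each list with the largest pooled changes, and for members with an SD of log2 CPM of at least 0.3 the 2 genes with the smallest root mean square difference over the 12 libraries. Alternatives were other scaling factors, DESeq2, no filter, a replicate block, the compared groups alone, each library left out, the thresholds of the study and other totals for CPM.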

Additional observations from a re-analysis of the deposited data

How the results depend on the processing

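Of the log2 fold changes of the members refitted under the alternatives, 564 kept their direction and their side of the threshold. A further 16 gained a call and 11 lost one. The other 27 turned direction, and none of them was called in either fit. Of the fits that left out a library, only those with the lowest and the highest log2 fold change entered these counts. More calls changed over all fits of this kind, and they are given with each gene above. Values are log2 fold changes, and ranges are over the fits that left out a library. Ctsb turned for IFNβ with supernatant (RLE factors -0.034, DESeq2 -0.028, no filter -0.019, the compared groups alone -6.5e-06, range -0.039 to 0.017), without it (RLE factors -0.024, DESeq2 -0.019, the compared groups alone -0.011, range -0.021 to 0.054) and pooled (RLE factors -0.029, DESeq2 -0.024, range -0.030 to 0.028). For supernatant alone, no filter turned Ctsa (0.0012) and Ctss (0.022), and ranges crossed 0 for Ctsd (-0.0027 to 0.069), Ctss (-0.025 to 0.015) and Ctsz (-0.081 to 0.015). For supernatant in the presence of IFNβ they did for Ctsa (-0.12 to 0.016), Ctsk (-0.082 to 0.18) and Ctsz (-0.11 to 0.024). For the interaction they did for Ctsa (-0.093 to 0.048), Ctsd (-0.039 to 0.033), Ctsk (-0.22 to 0.035) and Ctsz (-0.070 to 0.068), no filter turned Ctsd (-0.022) and Ctsz (-0.011), and counting Ctsd with Gm49369 turned Ctsd (-0.015). The cause of these moves was not tested. Under the thresholds of the study, the members higher were 1 and lower 0 for IFNβ with supernatant, without it, pooled and against supernatant, and 0 were higher with supernatant, with or without IFNβ or pooled. With supernatant alone, DESeq2 called 4 members higher and 204 genes, no filter gave 75 genes, the compared groups alone 22, and leaving out a library 16 (without eGFP supernatant replicate 2) to 76 (without Ifnb1eGFP supernatant replicate 1), against 45. With supernatant in the presence of IFNβ, DESeq2 called 2 members higher and 115 genes, no filter 41, and the compared groups alone 0 members and 2 genes, against 24. Leaving out a library gave 0 to 3 members and 4 (without rIFNβ replicate 1) to 1051 genes (without Ifnb1eGFP supernatant replicate 2). Pooled, library totals gave 2 members higher, with Ctsc and Ctsh both at an adjusted p of 0.0565, DESeq2 gave 347 genes, and leaving out a library 2 to 4 members and 55 (without rIFNβ replicate 1) to 531 genes (without Ifnb1eGFP supernatant replicate 2), against 136. Leaving out a library left 2 to 4 members lower for IFNβ without supernatant and 2 to 5 for IFNβ against supernatant. The interaction had 1 member lower and 16 genes in DESeq2 and 1 gene with no filter. DESeq2 also called Lgmn for supernatant in the presence of IFNβ (0.20, adjusted p = 0.000373). Summed CPM of the members was 58143, 62109, 68380 and 62697 in control, eGFP supernatant, Ifnb1eGFP supernatant and rIFNβ when they were left out of the totals, against 55079, 58924, 63909 and 58588.

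The replicate numbers were not used as pairs. Over 18 pairs of libraries with the same number, deviations from the group means correlated with a mean r of 0.148 (0.0582 to 0.252), and 13 of 18 were above 0.1. All 12 libraries correlated best with their own number, which is a hint from the data and not from the design. With the number as a replicate block, 4 members (Ctsc at an adjusted p of 0.0278 and Ctsh at 0.0226 beside Ctsl and Lgmn) and 122 genes were called for supernatant alone, 48 genes for supernatant in the presence of IFNβ and 252 genes pooled. Ctsb was also called with the block, pooled (0.10, adjusted p = 0.0274) and for IFNβ against supernatant (-0.09, adjusted p = 0.0137).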

Other observations

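For the 6 members whose level varied most over the 12 libraries (SD of log2 CPM of at least 0.3), the genes with the nearest pattern were found by the root mean square difference of centered log2 CPM, given here as a description. Ctss was nearest to Map4k3 (0.0247) and Crbn (0.0414), the closest matches of the 6. Ctsh was nearest to Smpdl3a (0.0839) and Adap2 (0.0847), Lgmn to Ms4a6d (0.0952) and 1600014C10Rik (0.104), and Ctsc to Fcgr4 (0.116) and Tasl (0.117). Ctsl was nearest to Picalm (0.123), whose mean was 293.2 CPM in the untreated control, 345.1 with eGFP supernatant, 411.4 with rIFNβ and 540.1 with Ifnb1eGFP supernatant, and to Ggta1 (0.137). Ctsk was nearest to Dubr (0.128) and Tmem165 (0.132), whose means were 29.9 and 178.4 CPM in the untreated control and 8.88 and 51.3 CPM with rIFNβ. None of these 12 genes was itself a member.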
